A study of Mus musculus with 19 samples.

Results

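Igfbp4, Lef1, Tcf7, Satb1, Actn1, Ccr7, Klf2, S1pr1 and Bach2 are genes that mark naive CD4 T cells or steer their traffic through lymph nodes. Their messenger RNA was followed over 4 populations of mouse CD4 T cells told apart by a reporter of interleukin 2 (GFP) and a reporter of Foxp3 (RFP). The genes were found by name among the probes of the arrays: 12 of 55681 probes carry one of the 9 names, and the 9 genes stand among 20613 genes tested. They were chosen by their measured difference between GFP-RFP+ and GFP-RFP- cells. Their values in that comparison are therefore a description, with no test read from them.

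Naive T cells hold a programme of transcription factors that keeps them quiescent and mobile until they meet antigen. TCF1, made from Tcf7, and its relative LEF1 bind the same DNA motif and can recruit beta-catenin or Groucho-type corepressors, BACH2 restrains effector genes, and SATB1 organises chromatin. KLF2 drives the genes for exit from lymph nodes, above all S1pr1, whose product senses sphingosine 1-phosphate, while CCR7 senses the chemokines CCL19 and CCL21 that draw T cells into lymph nodes. Regulatory T cells, which depend on Foxp3, are known to express less Igfbp4, Lef1 and Tcf7 than naive conventional cells, and activated cells of either lineage lose much of the same programme.

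The source of all cells was adult female C57Bl/6 mice, from which spleen and lymph nodes were taken and which carried both reporters, written Tg IL-2-GFP x FOXP3mRFP in the labels. The groups were GFP-RFP- (conventional cells without the IL-2 reporter, 5 arrays), GFP+RFP- (conventional cells with it, 5 arrays), GFP-RFP+ (regulatory cells without it, 5 arrays) and GFP+RFP+ (regulatory cells with it, 4 arrays, replicates 1, 3, 4 and 5). Every group, the controls included, therefore carries both reporter alleles, and reporter colour stands in for production of IL-2 or Foxp3. One label names all samples conventional, although the subtype label calls the RFP+ samples regulatory, and the groups here follow the colours. The study's title asks how regulatory cells and cells producing IL-2 relate. Nothing in the labels says that replicates came from separate animals, so a p-value here weighs a difference only against array-to-array scatter, part of which may be technical.

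Levels are log2 signal of a probe minus the array's 75th percentile over the 6610 probes detected on all 19 arrays, so that a difference of 1 is a doubling. A probe counts as detected where the scanner software marked it well above background. The arrays differed in brightness: 22.01% to 44.86% of all probes were detected, with group means of 40.6% (GFP-RFP-), 36.9% (GFP+RFP-), 32.2% (GFP+RFP+) and 29.6% (GFP-RFP+). Of 10 T cell identity genes, Cd3d, Cd3g, Cd4, Cd5, Lck and Zap70 were detected on all 19 arrays. The other 4 were missing from some: over GFP-RFP-, GFP+RFP-, GFP-RFP+ and GFP+RFP+ arrays, Cd3e was detected on 5, 4, 3 and 3, Cd28 on 5, 4, 1 and 3, Cd2 on 5, 4, 5 and 3, and Cd6 on 5, 5, 4 and 4. Foxp3 was detected on all 19 as well, with levels of -8.50 to -7.34 in GFP-RFP-, -8.41 to -6.89 in GFP+RFP- and -7.33 to -5.49 in GFP+RFP+ cells. Foxp3 in GFP+RFP+ cells thus overlapped that in GFP+RFP- cells. In GFP-RFP+ cells its levels ran from -8.64 to -5.91 on 4 arrays and reached 0.25 on replicate 3. They so overlapped the arrays of both RFP- groups, which goes against the label of GFP-RFP+ cells. Without replicate 3, the array of highest Foxp3, Igfbp4 lay -6.83 apart in GFP-RFP+ minus GFP-RFP- cells (-7.14 with it), and Lef1 4.37 apart in GFP+RFP+ minus GFP-RFP+ cells (3.80 with it). Of 8 measured markers of regulatory cells, limma called 1 between GFP-RFP+ and GFP-RFP- cells, Gpr83, where it called 1.7% of all genes. In sign, 6 of the 8 were higher and 2 lower there. Gpr83 was detected on 4 of 5 GFP-RFP+ arrays, 1 of 5 GFP+RFP- arrays and on 0 arrays of the other groups. Over GFP-RFP-, GFP+RFP-, GFP-RFP+ and GFP+RFP+ arrays, Ctla4 was detected on 5, 5, 3 and 3, and Il2ra on 1, 1, 1 and 2. Il2 was detected on 2 of 5, 2 of 5, 0 of 5 and 1 of 4 arrays of GFP-RFP-, GFP+RFP-, GFP-RFP+ and GFP+RFP+ cells. Its ranges overlapped between GFP+ and GFP- cells, so Il2 RNA did not separate the groups by GFP. In bulk samples such as these, fewer cells of a type and less RNA per cell cannot be told apart.

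The promoters of the genes were read for short motifs of the factors named above, since Klf2, Lef1 and Tcf7 encode DNA-binding proteins of known motif. RefSeq promoters on GRCm38.p6 were found for 7 of the 9 genes, 15 promoters in all; Ccr7 and S1pr1 had none in the table. In the 250 bases before the gene start, on both strands, the KLF motif CCACACCC was present in 2 promoters, 1 each of Igfbp4 and Tcf7, and in 3.20% of all 32851 promoters. The ETS motif ACTTCCGG was present in the same promoter of Tcf7 and in 2.88% of all promoters. None of the 15 held the TCF/LEF motifs CTTTGAT (3.21% of all promoters) or CTTTGAA (4.46%), the FOXO motif TGTTTAC (3.17%) or the AP-1 motif TGACTCA (4.46%) as spelled here. The sequences below are the Igfbp4 promoter, chr11:99040994-99041243 (+ strand), and stretches of 30 bases from the Tcf7 promoter, chr11:52282646-52282675 and chr11:52282603-52282632 (- strand). They are shown because they carry the 3 matches. Capitals mark the motif, which for KLF lies on the opposite strand and reads GGGTGTGG.
Igfbp4 promoter: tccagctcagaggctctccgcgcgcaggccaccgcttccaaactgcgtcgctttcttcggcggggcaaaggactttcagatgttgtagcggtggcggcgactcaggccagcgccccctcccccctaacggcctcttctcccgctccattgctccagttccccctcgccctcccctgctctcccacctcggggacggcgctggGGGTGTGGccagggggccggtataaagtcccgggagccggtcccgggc
Tcf7, KLF match: accgggggtggGGGTGTGGggggcgggttt
Tcf7, ETS match: gagctggagtcACTTCCGGtgccctgacct
The KLF match begins 48 bases before the Igfbp4 start and 69 bases before the Tcf7 start, and the ETS match 26 bases before the Tcf7 start. A match is a description of letters, not a site of binding.

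Across the 4 groups, GFP-RFP- cells had the highest mean of 7 of the 9 genes. High GFP-RFP- values entered the choice of genes, which favours this count and detection on these arrays. No share of all genes was computed for the highest mean. Detection of the 9 genes had the same order of groups as that of all genes: 41 of 45 values of the 9 genes were above background on GFP-RFP- arrays (91.1%, against 77.3% over all genes tested), 38 of 45 on GFP+RFP- (84.4%, against 71.6%), 28 of 36 on GFP+RFP+ (77.8%, against 63.2%) and 28 of 45 on GFP-RFP+ arrays (62.2%, against 59.3%). The genes were also least variable in GFP-RFP- cells, where 7 of 9 had their smallest SD, as did 38.5% of all genes. The choice of genes favours this count too, so it is no independent evidence. The median difference of the 9 genes was -2.98 in GFP-RFP+ minus GFP-RFP- cells, where all genes had a median of -0.29. It was -0.63 in GFP+RFP+ minus GFP+RFP- cells (all genes 0.22), -1.19 in GFP+RFP- minus GFP-RFP- cells (all genes -0.02) and 0.86 in GFP+RFP+ minus GFP-RFP+ cells (all genes 0.41).

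**Figure D1:**
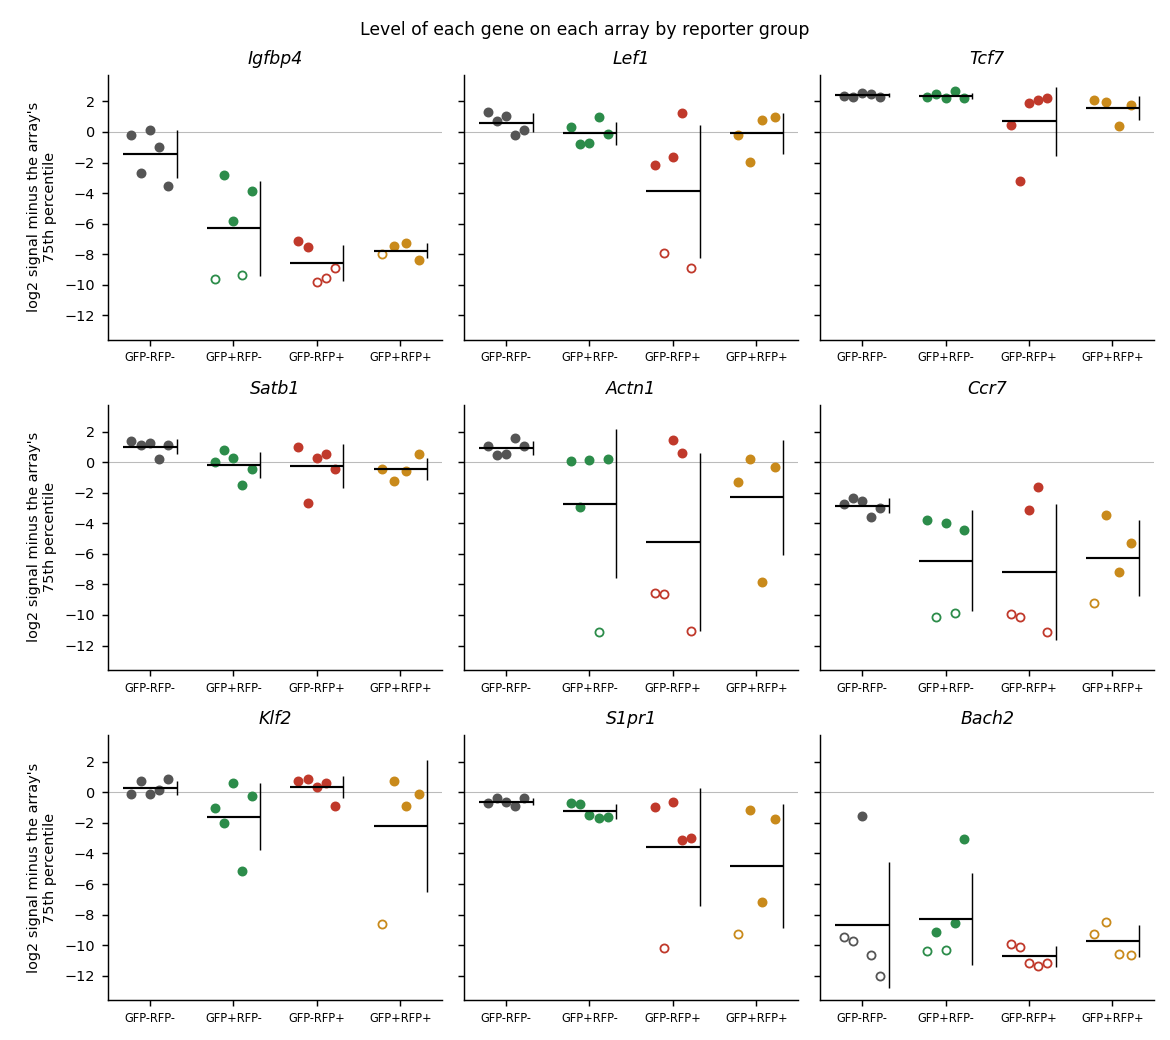
Level of each of the 9 genes (log2 signal minus the array's 75th percentile, vertical axis) on each array by reporter group (horizontal axis); filled points were well above background, open points were not, horizontal bars are group means and vertical lines are ± 1 SD. GFP-RFP- points sit close together for Tcf7 (SD 0.13) and S1pr1 (SD 0.22), whereas Actn1 splits into bright and dim arrays in the other groups.

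Igfbp4 encodes a secreted protein that binds insulin-like growth factors and is a classical transcript of naive T cells. Its probe (chr11:98913334-98913393, mm9, + strand, base 1442 of the transcript) gave levels of -0.18, -2.67, 0.10, -0.98 and -3.52 on GFP-RFP- replicates 1 to 5. GFP+RFP- replicates 2, 3 and 5 gave -2.85, -5.83 and -3.88, while replicates 1 and 4 lay at -9.60 and -9.38, not above background. The GFP-RFP+ arrays were at -7.16 and -7.52 on replicates 1 and 2 and not above background at -9.80, -9.55 and -8.91 on replicates 3 to 5. GFP+RFP+ replicates 3, 4 and 5 lay at -7.49, -7.27 and -8.36, and replicate 1, not above background, at -7.96. All arrays of both regulatory groups were thus below all GFP-RFP- arrays, and GFP+RFP- arrays spanned the range between.

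Igfbp4 averaged -1.45 ± 1.58 in GFP-RFP- cells (SD, n = 5). GFP+RFP- cells followed at -6.31 ± 3.1 (n = 5), then GFP+RFP+ cells at -7.77 ± 0.49 (n = 4) and GFP-RFP+ cells at -8.59 ± 1.19 (n = 5). The step between the first and second of these groups was larger than their pooled SD (2.46), and the other steps were not. GFP+RFP- cells lay 4.86 below GFP-RFP- cells on the log2 scale (difference -4.86 ± 1.17 SE, 95% interval -7.32 to -2.39), with an unadjusted p of 0.00066 in the limma fit and an adjusted p of 0.53 over all genes, so it did not pass. This test uses the GFP-RFP- arrays on which the genes were chosen, and so is not independent of the choice. Within slides 1, 2 and 3, the fitted difference was -7.68, -4.28 and -0.36. GFP+RFP+ minus GFP+RFP- cells gave -1.46 ± 1.24 (limma, adjusted p = 0.56), and GFP+RFP+ minus GFP-RFP+ cells 0.82 ± 1.24 (adjusted p = 0.95). The comparison that chose the genes gave -7.14, and -8.44, -5.69 and -5.71 within the slides.

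LEF1 and TCF1 are the HMG-box factors of the naive programme. The Lef1 probe used (chr3:130907851-130926012, + strand, base 2160 of the transcript, spanning an intron) was bright on all GFP-RFP- arrays, at 1.34, 0.71, 1.07, -0.18 and 0.11. It was equally detected on GFP+RFP- arrays, at 0.36, -0.78, -0.75, 0.98 and -0.16. On GFP-RFP+ replicates 1, 3 and 4 it read -2.19, -1.64 and 1.24, and replicates 2 and 5 were not above background at -7.94 and -8.93. GFP+RFP+ replicates 1, 3, 4 and 5 gave -0.19, -1.95, 0.78 and 1.01. The 4 groups overlapped, and the low mean of GFP-RFP+ cells came with 2 arrays without detectable signal.

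Lef1 was 3.80 ± 1.53 (SE) higher on the log2 scale in GFP+RFP+ than in GFP-RFP+ cells, at means of -0.09 ± 1.35 (SD, n = 4) and -3.89 ± 4.36 (n = 5). The 95% interval was 0.57 to 7.04, with an unadjusted p of 0.024 by limma and an adjusted p of 0.86, so the difference did not pass. Within slides 1, 2 and 3 it was 0.85, 8.72 and 4.85. A further Lef1 probe (chr3:130926200-130926259, base 2407) did not repeat it, with a difference of -0.05 ± 2.02 and an interval of -4.31 to 4.22. That probe read -1.71 to -1.18 on GFP-RFP- arrays and was lower on each array of GFP+RFP- cells, at -2.96, -3.65, -2.48, -10.95 (not above background) and -3.26. Its difference between these groups was -3.20 ± 1.91 (limma over 28094 single probes, adjusted p = 1.0), against -0.68 ± 1.44 with the probe used. In GFP-RFP+ cells it was detected on 3 of 5 arrays, and in GFP+RFP+ cells on 2 of 4.

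Tcf7 was detected on all 19 arrays (chr11:52066114-52066173, - strand, base 2170 of the transcript). GFP-RFP- arrays gave 2.38, 2.31, 2.57, 2.52 and 2.29, and GFP+RFP- arrays 2.28, 2.48, 2.23, 2.69 and 2.26. These groups overlapped, with a difference of -0.03 ± 0.78 (SE) and a 95% interval of -1.67 to 1.62. GFP+RFP+ replicates 1, 3, 4 and 5 read 2.11, 1.95, 0.41 and 1.75, each below every GFP+RFP- array. GFP-RFP+ arrays gave 0.46, -3.19, 1.87, 2.06 and 2.25, each below every GFP-RFP- array, with replicate 2 far lower than the rest.

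The Tcf7 difference of GFP+RFP+ minus GFP+RFP- cells was -0.83 ± 0.83 (SE), with an interval of -2.58 to 0.91, and did not pass (limma, adjusted p = 0.63). It was -0.22, -2.18 and -0.51 within slides 1, 2 and 3. The fit shares 1 spread over all groups, so the wide scatter of GFP-RFP+ cells (SD 2.28) enters this error, although GFP+RFP- cells scattered by only 0.20. In the comparison that chose the genes the Tcf7 difference was -1.72, and -1.31, -5.60 and -0.13 within slides 1, 2 and 3. The other Tcf7 probe (chr11:52066738-52066797, base 1546) overlapped between groups: its means were -0.26 ± 0.28, -0.83 ± 0.51, -3.76 ± 4.09 and -3.26 ± 3.21 in GFP-RFP-, GFP+RFP-, GFP-RFP+ and GFP+RFP+ cells. GFP+RFP+ minus GFP+RFP- cells gave -2.43 ± 1.65 with it (limma, adjusted p = 0.47 over single probes).

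SATB1 is a chromatin organiser that is abundant in thymocytes and naive T cells and repressed by Foxp3 in regulatory cells. Its probe (chr17:51879137-51879196, - strand, base 2533) was also detected on all 19 arrays. Satb1 read 1.41, 1.10, 1.28, 0.22 and 1.10 in GFP-RFP- cells and 0.04, 0.77, 0.29, -1.47 and -0.47 in GFP+RFP- cells. GFP-RFP+ arrays gave 0.97, -2.69, 0.31, 0.54 and -0.44, and GFP+RFP+ arrays -0.44, -1.23, -0.55 and 0.53. Mean Satb1 was thus highest in GFP-RFP- cells, by more than the pooled SD (0.69) over the next group, and the other groups lay within their spread of each other. Its difference of -1.19 ± 0.63 (SE) in GFP+RFP- minus GFP-RFP- cells, with an interval of -2.51 to 0.13, did not pass (limma, adjusted p = 1.0). GFP+RFP+ minus GFP+RFP- cells gave -0.25 ± 0.66 for Satb1, and 0.31 where arrays were scaled on all probes.

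Bach2 was the dimmest of the genes in detection and its probes disagreed. The probe used (chr4:32588782-32588841, + strand, base 343) was above background on 4 of 19 arrays, at -1.53 on GFP-RFP- replicate 3 and at -9.13, -8.57 and -3.06 on GFP+RFP- replicates 2, 4 and 5. The other (chr4:32673009-32673068, base 8418) was above background on 4 arrays as well, GFP-RFP- replicates 2 to 5, at -5.48, -7.09, -3.61 and -4.14. It was on no array of the other groups. By that probe the GFP-RFP- mean was at least 6.37-fold higher than that of GFP+RFP- cells, with measured means of -6.31 and -10.85. The ranges overlapped, since GFP-RFP- replicate 1 lay at -11.23, not above background. The fit gave an unadjusted p of 0.00053 and an adjusted p of 0.40 (limma over single probes). That probe passed the filter through GFP-RFP- arrays alone, on which the genes were also chosen. Its fold and p-value are therefore no independent evidence. An "at least" fold sets the brighter mean against the lowest signal well above background on each dim array, or the probe's own signal where that was higher. Neither probe was above background in regulatory cells, so both Bach2 levels there are bounds.

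**Figure D2:**
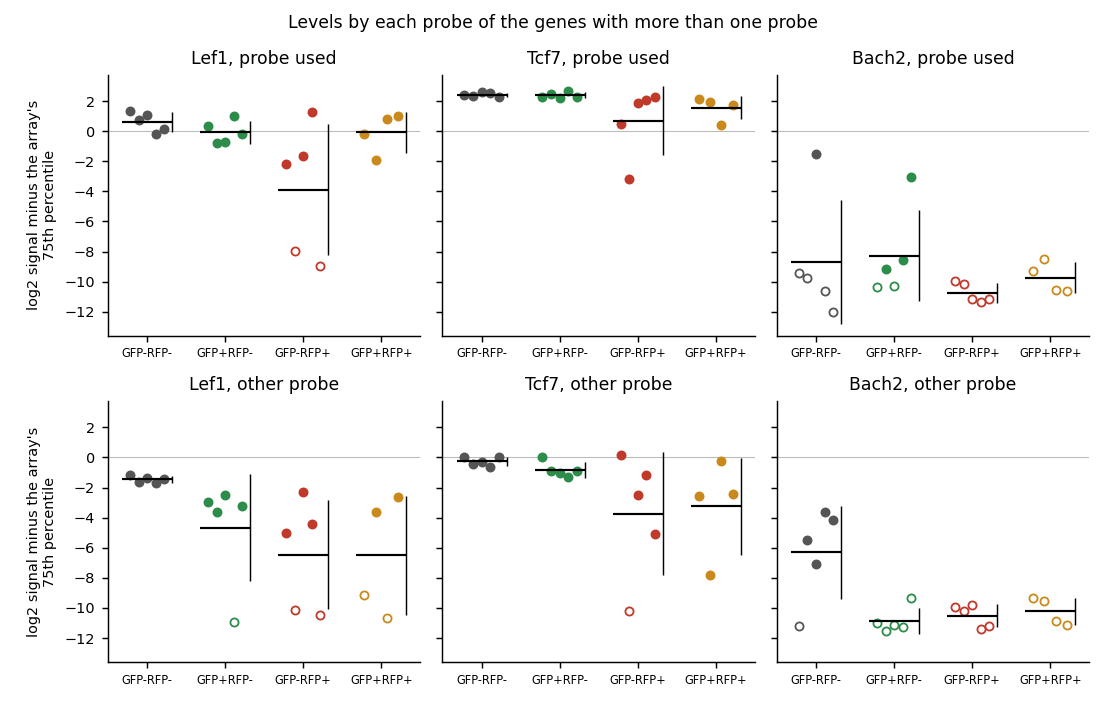
Levels of Lef1, Tcf7 and Bach2 by each of their probes (log2 signal minus the array's 75th percentile, vertical axis) in the 4 reporter groups (horizontal axis), with the probe used above and the other probe below; symbols as in the plot of all 9 genes. Bach2 was detected on 4 GFP-RFP- arrays with the other probe and on 1 with the probe used.

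Klf2, the zinc finger factor that switches on S1pr1, differed from the rest in its order of groups. Its probe (chr8:74845137-74845196, + strand, base 1399) gave -0.10, 0.75, -0.14, 0.16 and 0.86 in GFP-RFP- cells and 0.78, 0.88, 0.35, 0.60 and -0.89 in GFP-RFP+ cells. The means, 0.31 ± 0.47 and 0.34 ± 0.72 (SD, n = 5 each), lay 0.04 apart. In GFP+RFP- cells Klf2 read -1.04, -2.01, 0.59, -5.17 and -0.27. GFP+RFP+ replicates 3, 4 and 5 gave 0.76, -0.87 and -0.13, and replicate 1 was not above background at -8.59. Both groups with the IL-2 reporter had the lower means of Klf2, -1.58 ± 2.22 and -2.21 ± 4.31, and each overlapped its counterpart.

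Neither IL-2 reporter difference of Klf2 passed. GFP+RFP- minus GFP-RFP- cells gave -1.88 ± 1.39 (SE, interval -4.81 to 1.04, limma adjusted p = 1.0), and -0.11, -4.04 and -1.12 within slides 1, 2 and 3. GFP+RFP+ minus GFP-RFP+ cells gave -2.55 ± 1.47 (interval -5.65 to 0.55, adjusted p = 0.93). The latter was -0.19 without the 3 dimmest arrays (below 30% of probes detected), GFP+RFP+ replicate 1 and GFP-RFP+ replicates 1 and 4.

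S1pr1, the egress receptor, was detected on every array without RFP (chr3:115414020-115414079, - strand, base 2300). Its levels were -0.71, -0.39, -0.61, -0.90 and -0.38 in GFP-RFP- and -0.68, -0.78, -1.50, -1.66 and -1.58 in GFP+RFP- cells. GFP-RFP+ arrays gave -0.97, -10.20 (not above background), -0.60, -3.10 and -3.02. GFP+RFP+ replicates 1, 3, 4 and 5 gave -9.29 (not above background), -1.13, -7.15 and -1.71. S1pr1 thus had a narrow range on RFP- arrays, and arrays of both regulatory groups ranged from that level to the background.

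The S1pr1 difference of GFP+RFP+ minus GFP+RFP- cells was -3.58 ± 1.73 (SE, interval -7.24 to 0.07), with an unadjusted p of 0.054 by limma and an adjusted p of 0.29. It was -4.12, -5.94 and -0.13 within slides 1, 2 and 3, and -2.09 without the 3 arrays of fewest detected probes. GFP+RFP- minus GFP-RFP- cells differed by -0.64 ± 1.63 (interval -4.09 to 2.80). That step was larger than the pooled SD of these groups (0.37) but far within the error of the fit, which takes in the scatter of the regulatory groups. On the same arrays, S1pr1 was not above background on GFP-RFP+ replicate 2, where Klf2 was detected, and neither was above background on GFP+RFP+ replicate 1.

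CCR7 guides T cells into lymph nodes and is lost by most effector cells. The Ccr7 probe (chr11:99005551-99005610, - strand, base 1877) read -2.76, -2.32, -2.54, -3.58 and -3.03 on GFP-RFP- arrays. All 5 GFP+RFP- arrays were lower, at -3.78, -3.96 and -4.42 on replicates 1, 3 and 5 and not above background at -10.15 and -9.89 on replicates 2 and 4. In GFP-RFP+ cells replicates 3 and 4 were bright at -3.12 and -1.65, the latter the highest of all 19 arrays, and replicates 1, 2 and 5 were not above background at -9.91, -10.12 and -11.10. GFP+RFP+ replicates 3, 4 and 5 read -3.45, -7.16 and -5.31, and replicate 1 was not above background at -9.23. Ccr7 was therefore lower on all GFP+RFP- and all GFP+RFP+ arrays but 1 than on every GFP-RFP- array, and split in GFP-RFP+ cells.

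In GFP+RFP- minus GFP-RFP- cells the Ccr7 difference was -3.59 ± 1.84 (SE, interval -7.48 to 0.30), and did not pass (limma, adjusted p = 1.0). It was -1.22, -7.07 and -1.39 within slides 1, 2 and 3. GFP+RFP+ minus GFP+RFP- cells differed by 0.15 ± 1.96 (interval -3.98 to 4.28, adjusted p = 0.98), and GFP+RFP+ minus GFP-RFP+ cells by 0.89 ± 1.96 (adjusted p = 0.96).

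Actn1 encodes alpha-actinin-1, which cross-links actin filaments and anchors them at integrin contacts. Its probe (chr12:81269446-81269882, - strand, base 2762, spanning an intron) read 1.08, 0.47, 0.52, 1.59 and 1.07 in GFP-RFP- cells. Every GFP+RFP- array was lower, at 0.09, -2.92, 0.17, -11.14 (not above background) and 0.20. GFP-RFP+ replicates 3 and 4 gave 1.46 and 0.63, and replicates 1, 2 and 5 were not above background at -8.55, -8.62 and -11.06. In GFP+RFP+ cells Actn1 read -1.27, 0.22, -7.84 and -0.34. Actn1 thus had the widest range of the 9 genes, 12.7 log2 units, and lay on most arrays either near the 75th percentile or near background.

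No test of Actn1 passed. GFP+RFP- minus GFP-RFP- cells differed by -3.66 ± 2.56 (SE, interval -9.07 to 1.74, limma adjusted p = 1.0), a difference of -0.67 within slide 1 and -8.06 within slide 2. GFP+RFP+ minus GFP+RFP- cells differed by 0.41 ± 2.72 (interval -5.32 to 6.15), too wide to tell a large change from none.

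In GFP-RFP+ minus GFP-RFP- cells, the comparison that chose the genes, the fit marked 1 of the 9 (Igfbp4, lower), where limma called 1.7% of all genes and 1.23% as lower. Nothing is read from that count, because the same values selected the genes. Of all genes called there 27.6% were higher; the share was 81.3% to 88.1% with quantile normalization, normexp correction, the authors' table, scaling on all probes or only probes detected on all arrays. Scaling on all probes moved the median of all genes from -0.29 to 1.02. Of the 9 differences, 8 were below 0, as were 57.1% of all genes. In GFP+RFP+ minus GFP+RFP- cells limma called 0 of the 9, where 0.204% of all genes were called (0.0873% higher and 0.116% lower), and 0 had an unadjusted p under 0.05, as did 17.4% of all genes. There 7 of 9 were below 0, against 44.1% of all genes. Among the 7 are Lef1, at -0.019 with a sign that turned in several settings, and Bach2, above background on 0 of 4 GFP+RFP+ arrays. For the IL-2 reporter in conventional cells limma called 0 of 9 (0.0097% of all genes), 1 had an unadjusted p under 0.05 (Igfbp4; 5.15% of all genes), and 8 of 9 were below 0, against 51.3% of all genes. In regulatory cells limma called 0 of 9 (0.00485% of all genes), 1 had an unadjusted p under 0.05 (Lef1; 5.41% of all genes), and 3 of 9 were below 0, against 30.8% of all genes. Bach2 is among the other 6 by its fitted sign alone, since it was above background in neither of these groups. The comparisons share arrays: both that use GFP-RFP- cells share those, and both that use GFP-RFP+ cells share those. High GFP-RFP- values and low GFP-RFP+ values entered the choice of genes, which favours differences below 0 in GFP+RFP- minus GFP-RFP- cells and above 0 in GFP+RFP+ minus GFP-RFP+ cells. The p-values of Igfbp4 and Lef1 there are therefore no independent evidence.

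**Figure D3:**
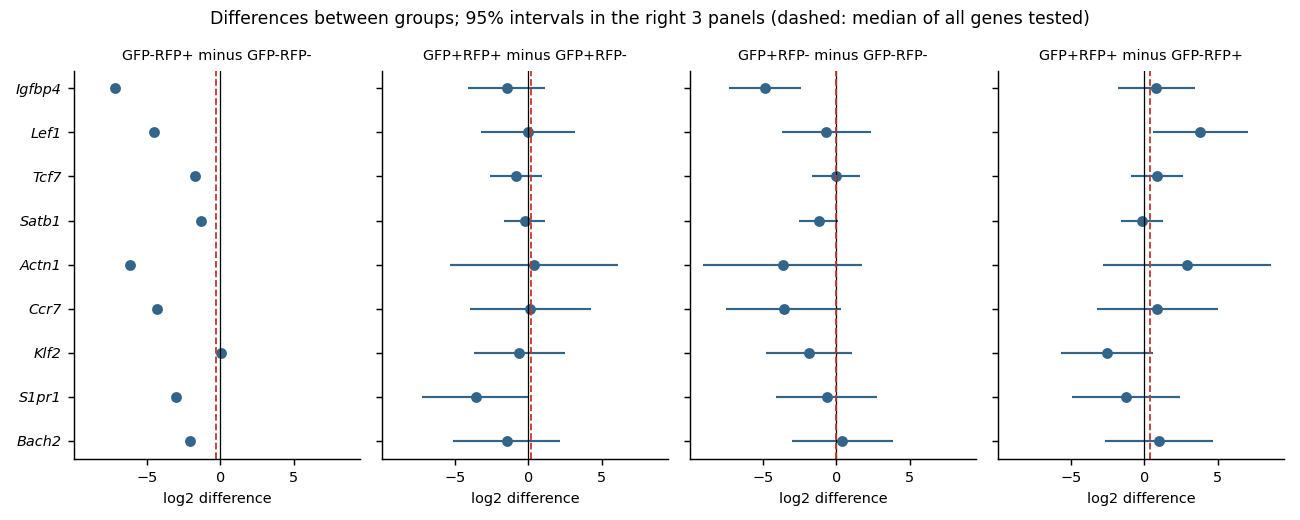
Difference of each gene (log2 units, horizontal axis) in the 4 comparisons (panels), with the 95% interval of the limma fit in the 3 panels that did not choose the genes; the solid line is 0 and the dashed line the median of all genes tested. Igfbp4 in GFP+RFP- minus GFP-RFP- cells and Lef1 in GFP+RFP+ minus GFP-RFP+ cells have intervals that leave out 0; neither passed after adjustment over all genes, and both comparisons share arrays with the one that chose the genes.

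The low values were not spread evenly over arrays. On 3 arrays only 4 of the 9 genes were above background: GFP-RFP+ replicate 2 (without Lef1, Actn1, Ccr7, S1pr1 and Bach2), GFP-RFP+ replicate 5 (without Igfbp4, Lef1, Actn1, Ccr7 and Bach2) and GFP+RFP+ replicate 1 (without Igfbp4, Ccr7, Klf2, S1pr1 and Bach2). GFP-RFP+ replicates 3 and 4 lacked Igfbp4 and Bach2 alone. All 5 GFP-RFP- arrays had 8 or 9 of the genes, with Bach2 the one missing from 4 of them. The share of all probes detected was 31.7%, 30.4% and 26.1% on the 3 arrays with 4 genes. GFP-RFP+ replicate 4, with 24.6% of probes detected, still had 7 of the genes. Over the 19 arrays the level of each gene correlated with the share of probes detected at r of 0.17 (Bach2) to 0.54 (Igfbp4), as a description; its part in the differences was not tested beyond the fit with that share as a covariate.

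**Figure D4:**
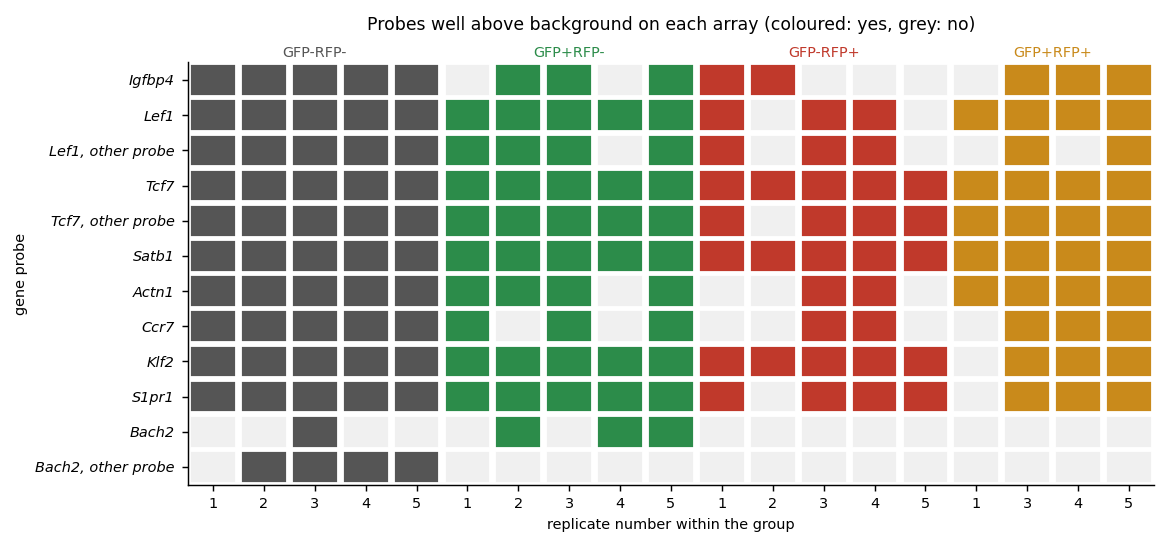
Detection of the 12 probes (rows) on the 19 arrays (columns, by group and replicate number); coloured cells were well above background and grey cells were not. Igfbp4, Actn1 and Ccr7 are each grey on 3 of 5 GFP-RFP+ arrays, and Tcf7 and Satb1 are coloured throughout with the probes used.

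**Figure D5:**
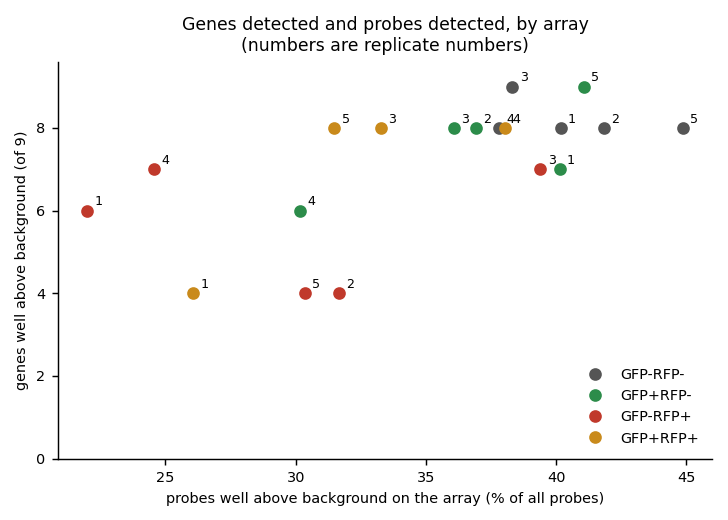
Number of the 9 genes above background (vertical axis) against the percent of all probes above background (horizontal axis) on each array, coloured by group and numbered by replicate. The 3 arrays with 4 genes lie at 26.1% to 31.7% of probes, and GFP-RFP+ replicates 1 and 4 lie lower on the horizontal axis with 6 and 7 genes.

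Actn1 and Ccr7 were the pair that went together most closely, at r = 0.857 over the 19 arrays and 0.823 in deviations from the group means: the arrays of GFP-RFP+ cells that had one had the other. Tcf7 and S1pr1 followed at r = 0.684 and Satb1 and S1pr1 at r = 0.643. Over the 36 pairs of genes, r ran from -0.22 to 0.857 with a median of 0.405, and 33 were above 0. In deviations from group means the median was 0.292 and 24 were above 0. The values of 1 array share its RNA, amplification and scaling. Among 7475 other genes detected on at least 10 arrays, those most like each gene over the 19 arrays were Lat2 for Igfbp4 (r = 0.850), Rbms1 for Lef1 (0.946), Srgn for Tcf7 (0.930) and Zfp958 for Satb1 (0.835). They were Isg15 for Actn1 (0.929), Foxk1 for Ccr7 (0.912), Tnip1 for Klf2 (0.868), Nop10 for S1pr1 (0.928) and Klk1b21 for Bach2 (0.935). The next in rank were Selenow, Ssbp1, Btf3, Cnr2, Rpusd4, Osgep, Slc25a3, Sem1 and Atp6v0b, in the same order.

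Genes that work with the 9 were read as lists. Partners of TCF1 and LEF1 in Wnt signalling, such as beta-catenin and the Groucho-type corepressors, gave 13 measured genes, of which limma called 0 in each comparison. Their median was -0.73 in GFP+RFP+ minus GFP+RFP- cells, with 8 of 13 lower, against 44.1% of all genes. It was -0.44 in GFP+RFP- minus GFP-RFP- cells, with 9 lower, against 51.3% of all genes. Tle3, a corepressor of TCF factors, had the smallest p for the IL-2 reporter, at 0.92 ± 0.36 (SE) in conventional cells (limma, adjusted p = 0.90) and 1.06 ± 0.38 in regulatory cells (adjusted p = 0.80). The list of FOXO1 and quiescence genes, which holds Foxo1 itself, had 15 measured members and 0 called in each comparison. Of these, Tob1, an antiproliferative factor, had signal above background in 0 of 4 GFP+RFP+ and 3 of 5 GFP+RFP- samples, at least 3.70-fold lower in the former, and did not pass (limma, adjusted p = 0.22). In GFP-RFP+ minus GFP-RFP- cells 12 of the 15 were lower, Btg2 and Foxo1 among them, against 57.1% of all genes. The median of the 15 was -1.98, and that of all genes -0.29.

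Of 19 measured genes of lymph node entry and egress, 17 were lower in GFP-RFP+ minus GFP-RFP- cells, against 57.1% of all genes. Their median was -2.52, and that of all genes -0.29. In GFP+RFP+ minus GFP+RFP- cells 16 were lower, against 44.1% of all genes, at a median of -1.52 (all genes 0.22). Limma called 0 in either comparison. Arrb2, which encodes beta-arrestin 2, a desensitiser of chemokine receptors, gave -5.16 ± 1.71 (SE) in the latter (limma, adjusted p = 0.15). The integrin chain Itgb2 gave 6.25 ± 1.83 in GFP+RFP+ minus GFP-RFP+ cells (adjusted p = 0.71), and the S1P receptor S1pr4 -4.31 ± 1.96 in GFP+RFP- minus GFP-RFP- cells (adjusted p = 0.97). Of 6 actinin and focal adhesion genes, limma called 0 in each comparison, and Actn4, the other non-muscle actinin, gave -2.95 ± 1.32 in GFP+RFP- minus GFP-RFP- cells (adjusted p = 0.97). Of 8 partners and opponents of BACH2 limma called 0, and the AP-1 factor Junb gave -6.62 ± 2.20 in GFP+RFP+ minus GFP+RFP- cells (adjusted p = 0.15). Among 5 measured genes of the insulin-like growth factor axis limma called 0 as well. Effector and memory genes, which naive cells hold low, had 0 of 10 called outside GFP-RFP+ minus GFP-RFP- cells. There limma called 2 of the 10 lower, the integrin chain Itgb1 and the annexin Anxa1 (adjusted p = 0.033 and 0.045). It called 1.23% of all genes lower there. In sign 7 of the 10 were lower, against 57.1% of all genes, at a median of -1.13 (all genes -0.29).

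Markers of other cells were read beside these values. Of 5 measured B cell markers 2 to 4 were detected on an array of either regulatory group and 3 to 5 on an array of either conventional group, with summed levels of -4.40 to 0.25 (GFP-RFP+), -2.84 to -0.05 (GFP+RFP+), -1.57 to 0.37 (GFP-RFP-) and -2.49 to 1.09 (GFP+RFP-). Limma called 1 of the 5, Cd79b, lower in GFP-RFP+ minus GFP-RFP- cells (-6.34 ± 1.51 SE, adjusted p = 0.043). It called 1.23% of all genes lower there, and in sign 4 of the 5 were lower and 1 higher. In GFP+RFP+ minus GFP+RFP- cells Cd79b gave -6.03 ± 1.60 (limma, adjusted p = 0.10). Cd79b was detected on 5, 5, 2 and 2 arrays of GFP-RFP-, GFP+RFP-, GFP-RFP+ and GFP+RFP+ cells, and Ms4a1 on 1 array in all. Pax5 and Cd22, of the same list, were detected on every array. For 5 CD8 and NK cell markers the summed levels were -0.43 to 0.80, -2.14 to -0.20, -1.59 to 1.79 and -4.00 to 0.52 in the same order. Cd8a was detected on 3 arrays and Prf1 on every array. For 7 myeloid and dendritic cell markers the sums were 3.16 to 3.69, 2.89 to 3.66, 3.40 to 4.59 and 3.83 to 4.76. Csf1r and Itgam were detected on every array and Itgax on none. The 2 measured erythroid markers summed to 1.39 to 3.03, -3.85 to 2.14, -8.64 to 3.65 and -3.66 to 2.77. T cell identity genes, 10 measured, were all detected on each GFP-RFP- array, 7 to 10 of them on each GFP+RFP- or GFP-RFP+ array, and 8 to 10 on each GFP+RFP+ array. They summed to 2.99 to 3.28 (GFP-RFP-), 3.01 to 3.62 (GFP+RFP-), 3.13 to 4.22 (GFP-RFP+) and 2.80 to 3.52 (GFP+RFP+). The myeloid sums overlapped these, and in GFP+RFP+ cells lay above them. Sums over different probes do not give shares of cells. The part of other cells in the levels of the 9 genes was not tested.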

How the data were processed

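Per the labels' protocols, mRNA was captured on beads, its cDNA multiplied by PCR and marked with Cy3, and 19 one-colour arrays on 3 slides were hybridised. Per the file headers, the deposited values are linear intensity with background subtracted within each array and surrogate values for spots near it (Feature Extraction 10.7.3.1). A further table, by the authors, gives log2 values of unstated scaling, with column medians between 3.21 and 3.226, and served as an alternative. Probe coordinates were taken from the files, which use mm9. The 9 genes and all gene lists were chosen with earlier results of these data known.

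Outlier spots (3296 over all arrays) were left out and repeated spots averaged. Log2 processed signal minus the array's 75th percentile over the 6610 probes detected on all arrays was used. Probes detected on at least 4 arrays (28094) were kept, with the probe of highest mean per gene. Symbols came from RefSeq for 27235 probes and from the files for 28446. One limma model (limma 3.58.1, R 4.3.3) was fitted to all 4 groups, with Benjamini-Hochberg adjustment over all genes and calls at adjusted p under 0.05. The 36 differences of the 9 genes were each judged over all genes. The fit was tested on simulated data. Named besides the 9 genes were Foxp3, Il2, genes of a list with the smallest p, those called, and the nearest by correlation; markers and single members named for their detection were chosen after their values were seen. Deviations from group means correlated at -0.074 to 0.094 between same-numbered arrays (27 pairs) and at -0.269 to 0.184 between differently numbered arrays of different groups (108 pairs). Scatter between arrays could hide a pairing, so these values do not decide whether the numbers pair samples. Sample titles carry a numbered prefix that recurs across groups, but the labels do not say that it names an animal. Alternatives were scaling, normexp (offset 50), quantile normalization, the authors' values, filters, probe means, blocks, slides, a covariate and leaving out arrays; the scan day as a block and the other probe of a gene were added after seeing the data. One gene of a list is not reported here. The number of arrays limits precision. Summaries and figures were made with pandas 2.3.3, numpy 2.4.6, scipy 1.17.1 and matplotlib 3.10.9 under Python 3.11.15.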

Additional observations from a re-analysis of the deposited data

Results flagged for a closer look

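Of 48 sets of levels, 1 for each probe and group, 8 held an array whose gap to its neighbour took up more of the range than chance usually allows, a limit passed by chance in about 1 in 20 sets. On GFP+RFP- replicate 4, the other Lef1 probe lay at -10.95 (next -3.65) and Actn1 at -11.14 (next -2.92), neither above background. On GFP-RFP+ replicate 2 S1pr1 lay at -10.20, not above background (next -3.10). Satb1 was low on GFP-RFP- replicate 4 at 0.22 (next 1.10). The other Tcf7 probe was high on GFP+RFP- replicate 1 at 0.051 (next -0.91). The Bach2 probe used was high on GFP-RFP- replicate 3 at -1.53 (next -9.45) and on GFP+RFP- replicate 5 at -3.06 (next -8.57). The other Bach2 probe was highest on GFP+RFP- replicate 5 too, at -9.35, still not above background (next -11.02). The causes were not tested.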

How the results depend on the processing

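Over all settings limma called 0 of the 9 genes in the 3 comparisons that did not choose them. In the main fit, 0, 1 and 1 of the genes had an unadjusted p under 0.05. These counts of unadjusted p compare with 17.4%, 5.15% and 5.41% of all genes. They leave out the other Bach2 probe, with an unadjusted p of 0.00053 in GFP+RFP- minus GFP-RFP- cells (limma over single probes). For GFP-RFP+ minus GFP-RFP- cells, which chose the genes, the count is a description alone: it was 1, but 2 with normexp, 3 with quantile normalization and with the authors' table, and 0 with probes detected on all arrays (which keeps Tcf7 and Satb1 alone), with the share of detected probes as a covariate, without the 3 arrays under 30%, and within slides 1, 2 and 3. The Igfbp4 difference itself was -7.14, and -7.35 with the covariate and -7.29 without the 3 arrays. Leaving out 1 array gave 1 to 2 (2 without GFP-RFP+ replicate 4).

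Genes called in that comparison numbered 351, and 4022 with scaling on all probes, 4846 with normexp, 3474 with quantile normalization, 3600 with the authors' table, 598 with probes detected on all arrays, 1235 with slide as a block, 5 with the covariate, 27 without the 3 arrays, 87, 0 and 0 within slides, and 85 to 1166 leaving out 1 array (85 without GFP-RFP- replicate 1, 1166 without GFP-RFP+ replicate 4). In GFP+RFP+ minus GFP+RFP- cells 42 became 10, 5011, 25, 22, 748, 138 and 8 under the first 7 of these, 108 with no filter, 12 with scan day as a block, 74 with the 2 groups alone, 0 within each slide and 2 to 300 leaving out 1 array (2 without GFP+RFP+ replicate 4, 300 without GFP+RFP- replicate 4). In GFP+RFP- minus GFP-RFP- cells 2 became 0 with probes detected on all arrays and within each slide, 1 with slide or scan day as a block or the covariate, 5 with normexp, and 1 to 12 leaving out 1 array (1 without GFP-RFP- replicate 1, 12 without GFP-RFP- replicate 4). In GFP+RFP+ minus GFP-RFP+ cells 1 became 11 with scaling on all probes, 7 with normexp, 6 with probe means, 9 without the 3 arrays, 3 with scan day as a block, the covariate or the 2 groups alone, 2 with quantile normalization, the authors' table, probes detected on all arrays or slide as a block, 0 within each slide, and 1 to 20 leaving out 1 array (20 without GFP-RFP+ replicate 3). The replicate block gave 199, 8, 3 and 1 genes in the 4 comparisons in this order and changed no call of the 9 genes. It turned Ccr7 in GFP+RFP+ minus GFP+RFP- cells to -0.36. Whether the replicate numbers pair the samples is not known.

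Signs turned for several differences, none of them called. In GFP+RFP+ minus GFP+RFP- cells, Lef1 became 0.54 (scaling on all probes), 0.0034 (normexp), 0.14 (quantile, and the authors' table), 0.017 (without the 3 arrays), 0.68 and 1.17 (slides 2 and 3). Satb1 became 0.31 (scaling on all probes) and 1.01 (slide 3). Klf2 became 0.025 (normexp), 0.38 (covariate), 1.5 (without the 3 arrays), 2.72 and 0.14 (slides 2 and 3). Bach2 became 0.069 (normexp), 0.62 (other probe) and 1.44 (slide 1). Actn1 became -0.25 (slide as a block), -1.74 (scan day), -0.66, -0.81 and -0.54 (slides 1, 2 and 3). Ccr7 became -0.27 (slide as a block), -0.81 (scan day), -2.47 and -0.89 (slides 1 and 3). Leaving out 1 array gave ranges of -0.38 to 0.60 for Lef1, -0.58 to 0.018 for Satb1, -1.62 to 1.5 for Klf2, -1.69 to 2.26 for Actn1 and -0.79 to 1.13 for Ccr7.

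In GFP+RFP- minus GFP-RFP- cells, Tcf7 became 0.26 (scaling on all probes), 0.19 (scan day) and 0.17 (slide 2), and -0.10 to 0.013 leaving out 1 array. Bach2 became -0.026 (normexp), -2.08 (probe means), -4.54 (other probe) and -4.84 (slide 1), and -0.91 to 2.18. In GFP+RFP+ minus GFP-RFP+ cells, Ccr7 became -0.22 (normexp) and -0.085 to 2.28 leaving out 1 array. Lef1 became -0.047 (other probe), Bach2 -0.43 (slide 2), Klf2 0.017 (slide 3) and Tcf7 -0.41 (slide 3) and -0.11 to 1.25. Satb1 became 0.52 (without the 3 arrays), 2.14 and 0.48 (slides 2 and 3) and -0.77 to 0.15. S1pr1 became 1.27 (without the 3 arrays), 3.04 and 1.35 (slides 2 and 3) and -2.90 to 0.24. Bach2 was above background in neither regulatory group, and with the other probe not in GFP+RFP- cells either, so its signs between such groups have no meaning. The cause was not tested. Dim probes near background limit all values of Igfbp4, Ccr7, Actn1 and Bach2 below detection, which have no order among themselves.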
